A study of Mus musculus with 24 samples.

Results

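The comparison set 6 samples of mice given a western diet with carbon tetrachloride (WD+CCl4, labelled HCC, liver cancer) against 6 samples of mice given normal chow with the oil vehicle (ND+oil, labelled normal). It took every probe of the panel named for a mouse miRNA, 566 of 626 probes, in 12 of the 24 samples of the series, and 158 of these miRNAs could be tested. All animals were male C57BL/6N mice aged 40 weeks, and all received 1 intraperitoneal injection per week. WD+CCl4 mice ate a high-fat diet, drank a sugar solution (fructose at 23.1 g/L, glucose at 18.9 g/L) and were injected with carbon tetrachloride, a solvent that injures hepatocytes and is used in mice to produce liver fibrosis. ND+oil mice ate chow, drank tap water and were injected with corn oil, so the groups differed in diet and in toxin at once. RNA from serum exosomes was measured by NanoString nCounter, in which fluorescent barcodes bound to each miRNA are counted directly, with no amplification step. The labels assign HCC to a whole group. Tumour findings of single animals, the carbon tetrachloride dose, the animals per sample and the isolation of exosomes are not stated in the labels. The p-values therefore measure only how far these samples spread, which may be in part technical.

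Exosomes are small membrane vesicles that cells release into body fluids, and serum vesicles carry miRNAs of blood cells, endothelium and solid organs such as the liver. A miRNA is a short RNA that guides a repressor complex to messenger RNAs, chiefly through its seed, bases 2 to 8 from the 5′ end, so miRNAs with 1 seed share most of their targets. Hepatocytes release miR-122 and other liver miRNAs into blood when they are injured, while red cells, platelets and leukocytes supply much of the remaining circulating miRNA.

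The sequences below are those on which the results turn, as they show which of the changed miRNAs share a seed. They are mature mouse sequences from RefSeq (GRCm38.p6), 5′ to 3′, with the seed in capitals. The panel uses older names without an arm, which were read as the arm listed here, and 22 of the 25 changed miRNAs had an entry.
miR-192-5p: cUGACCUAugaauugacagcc
miR-148a-3p: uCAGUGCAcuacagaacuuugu
miR-1224-5p: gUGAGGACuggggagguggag
miR-2137: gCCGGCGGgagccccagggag
miR-29a-3p: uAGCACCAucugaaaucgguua
miR-29b-3p: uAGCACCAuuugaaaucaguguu
miR-29c-3p: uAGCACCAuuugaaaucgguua
miR-15a-5p: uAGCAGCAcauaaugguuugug
miR-15b-5p: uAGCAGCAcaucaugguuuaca
miR-16-5p: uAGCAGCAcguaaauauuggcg
let-7e-5p: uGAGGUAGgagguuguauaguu
let-7i-5p: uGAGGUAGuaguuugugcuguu
miR-98-5p: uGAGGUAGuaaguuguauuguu
miR-99a-5p: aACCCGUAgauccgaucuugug
miR-192-5p lies at chr19:6264857-6264877 (+), miR-148a-3p at chr6:51269829-51269850 (−), miR-1224-5p at chr16:20604452-20604472 (+) and miR-2137 at chrX:72992113-72992133 (+). The 3 miR-29 miRNAs share the seed AGCACCA. miR-29c-3p at chr1:195037600-195037621 (+) and 1 of the 2 copies of miR-29b-3p, at chr1:195037091-195037113 (+), start 509 bases apart. Over the 22 bases that both cover they differ at 3 positions, the first at base 18. miR-15a-5p at chr14:61632075-61632096 (−), miR-15b-5p at chr3:69009775-69009796 (+) and miR-16-5p share the seed AGCAGCA. A further seed, GAGGUAG, is common to all 9 measured let-7 family members, among them let-7e-5p at chr17:17830366-17830387 (+), let-7i-5p at chr10:122985698-122985719 (−) and miR-98-5p at chrX:151913229-151913250 (+). miR-99a-5p lies at chr16:77598940-77598961 (+), in a cluster with 1 of the let-7c genes.

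The values are digital counts multiplied by 1 factor per sample, here called scaled counts, and a negative control limit was set for each library at the mean plus 2 SD of its 8 negative control probes. Total miRNA counts were 139911, 326827 and 1328891 in WD+CCl4 libraries (lowest, median and highest), against 42478, 118705 and 204535 in ND+oil libraries. The limit stood at 16.8 to 86.9 scaled counts in WD+CCl4 libraries and at 44.8 to 198.9 in ND+oil libraries, where replicates 1 to 3 had the highest limits (169 to 198.9). In WD+CCl4, a median of 156.5 miRNAs lay above it, against 105 in ND+oil (85 to 88 in replicates 1 to 3), and 304 of the 566 lay above it in none of the 12 libraries. WD+CCl4 replicate 1 stood apart on the first principal component over the 24 libraries (44.2% of the variance), at 22.3 beside at most 3.67 in the other 5 libraries of its group. It also had the highest total count and the lowest haemolysis index of its group (the log2 difference of the red cell miR-451 from miR-23a, 1.17 beside 2.91 to 4.22), and the index was 2.98 to 3.82 in ND+oil. The calls and the main values are therefore given with and without this library. With bulk serum RNA, fewer vesicles of a type and less miRNA per vesicle cannot be told apart.

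Of the 158 miRNAs tested, 25 (15.8%) changed, 9 higher (5.7%) and 16 lower (10.1%) in WD+CCl4 than in ND+oil, by limma with an adjusted p under 0.05, and 55 had an unadjusted p under 0.05. All 25 lay on 1 side of the ND+oil mean in 6 of 6 WD+CCl4 samples. Their choice by the difference in these same samples favours this, and some miRNAs that did not pass, such as miR-30a and miR-27a, did the same. The rises were led by miR-122 and miR-192 of the liver and by miR-1224, and the falls by miR-99a, miR-29b, miR-181a and let-7i. Over all tested miRNAs the median log2 fold change was -0.17. In 16 of the 158 (10.1%) the ranges of the groups did not overlap, 9 higher (5.7%) and 7 lower (4.43%), and 13 of these 16 were among the 25. Without WD+CCl4 replicate 1 the test called 11 of 158 (6.96%), 6 higher (3.8%) and 5 lower (3.16%), 10 of them among the 25, and 18 did not overlap (11.4%), 10 higher (6.33%) and 8 lower (5.06%). All 25 had the same sign without it, with a smaller size in 21 and a larger one in 4. All 25 passed when replicate 1 of chow with carbon tetrachloride (ND+CCl4) was left out as well. That library is in neither group and enters only the shared estimate of spread.

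miR-122, by far the main hepatocyte miRNA and a regulator of lipid metabolism genes, had 1455, 8072 and 44112 scaled counts in WD+CCl4 (lowest, median and highest), against 78.0, 154.9 and 313 in ND+oil. The lowest WD+CCl4 sample was thus several times the highest ND+oil sample. Further levels in 3 values run in the same order. The fold change was 39.2 (log2 5.29, SE 0.85, adjusted p = 0.000273), and 26.3 without WD+CCl4 replicate 1 (log2 4.72, adjusted p = 0.00046). In ND+oil 5 of 6 samples lay above the negative control limit, which was 44.8 to 198.9 scaled counts there. The size of the fold thus depends in part on background. As a share of all recovered miRNA counts, miR-122 made up 0.503% to 7.27% of each WD+CCl4 library and 0.0337% to 0.122% of each ND+oil library. The exact 95% binomial interval of the lowest WD+CCl4 share, 0.467% to 0.540%, lay above that of the highest ND+oil share, 0.0952% to 0.153%; such intervals cover counting error only.

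miR-192, which is abundant in liver, kidney and gut, had 589, 965 and 24911 scaled counts in WD+CCl4, against 109, 165 and 229.7 in ND+oil. No sample overlapped, and 24911 was WD+CCl4 replicate 1, far above the next sample at 2139.5. The log2 fold change was 3.36 (SE 0.80, adjusted p = 0.0083), and 2.59 without that library (adjusted p = 0.0222). Only 3 of 6 ND+oil samples lay above the negative control limit, so the fold is in part a ratio to background. miR-148a, another liver-rich miRNA, which targets DNA methyltransferase and low-density lipoprotein receptor messenger RNAs, had 2266, 3924 and 40279 scaled counts in WD+CCl4, against 872, 1374 and 1735 in ND+oil. Its groups did not overlap either, with or without WD+CCl4 replicate 1. miR-148a rose by a log2 fold change of 2.07 (SE 0.67, adjusted p = 0.0418), but at 1.51 it missed the threshold without that library (adjusted p = 0.107).

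Of the 6 hepatocyte-enriched miRNAs on the panel, 5 were tested and 5 were higher, 3 of them past the threshold (all tested miRNAs: 65 higher and 93 lower, 9 of 158 or 5.7% called higher), with a median log2 fold change of 2.07. Without WD+CCl4 replicate 1 the median was 1.51 and 2 passed, beside 3.8% called higher of all tested. Their summed level was 4979, 13036 and 110083 scaled counts in WD+CCl4, against 1243, 1753 and 2248 in ND+oil, without overlap. Leaving out replicate 1, whose sum was the 110083, left a highest WD+CCl4 sum of 23078. miR-365 lay above the limit in 5 of 6 WD+CCl4 and 0 of 6 ND+oil samples (log2 1.13, adjusted p = 0.129; without replicate 1 log2 0.76, adjusted p = 0.318). miR-194, made from the same transcripts as miR-192, was above the limit in only 1 of 12 samples and was the member not tested.

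miR-1224, a mirtron, that is a miRNA cut from a short intron by splicing, had 1678, 2296 and 4770.1 scaled counts in WD+CCl4, against 304, 538 and 817 in ND+oil. The groups were clearly apart, all 12 values were above the limit, and WD+CCl4 replicate 1 lay within its group at 1941. The log2 fold change was 2.29 (SE 0.38, fold 4.88, adjusted p = 0.000273) and 2.37 without replicate 1 (adjusted p = 0.00046). Beside the 2296 of WD+CCl4, the median of miR-1224 was 2254 with western diet and oil (WD+oil), 623 with chow and carbon tetrachloride (ND+CCl4) and 538 in ND+oil. Across the 25, the WD+CCl4 mean was the highest of the 4 groups of the series in 8 of 9 rises and the lowest in 13 of 16 falls, and it was the highest or lowest in 74 of all 158 tested. Without WD+CCl4 replicate 1 these counts were 5 of 9, 9 of 16 and 71 of 158, and miR-122, miR-192 and miR-148a were no longer highest. The ND+oil mean was the lowest of the 4 groups in 8 of 9 rises and the highest in 16 of 16 falls. The 25 were chosen for the difference between WD+CCl4 and ND+oil, so these groups were favoured as the extremes.

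miR-2137, a GC-rich small RNA of unsettled function (85.7% G and C), had 1255, 2747 and 5839.5 scaled counts in WD+CCl4, against 264, 647 and 1072 in ND+oil. These ranges did not overlap, and miR-2137 rose with and without WD+CCl4 replicate 1 (log2 2.28, SE 0.66, adjusted p = 0.0302, and 2.36, adjusted p = 0.0369). miR-2138 had 49.9, 56.2 and 69.5 scaled counts in WD+CCl4, against 10.9, 27.1 and 53.3 in ND+oil. Its groups overlapped, none of the ND+oil values was above the limit, and the call (log2 1.09, SE 0.37, adjusted p = 0.0442) was lost without WD+CCl4 replicate 1 (log2 1.06, adjusted p = 0.0923).

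miR-432 and miR-540-3p belong to the imprinted Dlk1-Dio3 cluster, a long array of miRNAs transcribed from the maternal chromosome and low in most adult tissues. miR-432 had 25.5, 105 and 289.5 scaled counts in WD+CCl4, against 11.3, 19.6 and 36.3 in ND+oil, with overlap. It rose by log2 2.06 (SE 0.66, adjusted p = 0.0418), and by 2.40 without WD+CCl4 replicate 1 (adjusted p = 0.0241), the library in which it was near its lowest. miR-540-3p had 21.2, 46.0 and 204 scaled counts in WD+CCl4, against 5.63, 14.7 and 32.7 in ND+oil (log2 1.98, SE 0.68, adjusted p = 0.0468; without replicate 1 log2 1.71, adjusted p = 0.112). miR-432 was above the limit in 4 and miR-540-3p in 3 of 6 WD+CCl4 samples, against 0 of 6 ND+oil samples for each. Of 60 cluster probes on the panel 9 were tested, 8 higher and 1 lower, beside 65 higher and 93 lower of 158 tested. Their median log2 fold change was 0.85, and 0.83 without replicate 1. The 2 called higher stand beside 9 of 158 (5.7%) of all tested. miR-370 and miR-376b, described next, were also above the limit in 0 of 6 ND+oil samples, so the ND+oil values of these members are near background. miR-370 of this cluster passed only without that library, by log2 1.29 (adjusted p = 0.042) beside 0.93 (adjusted p = 0.129) with it. miR-376b lay just outside the threshold, with 35.1, 49.9 and 492 scaled counts in WD+CCl4 against 5.38, 15.9 and 32.7 in ND+oil (log2 2.20, adjusted p = 0.0545), without overlap. The 492 was WD+CCl4 replicate 1, and without it the log2 fold change was 1.65 (adjusted p = 0.167).

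**Figure D1:**
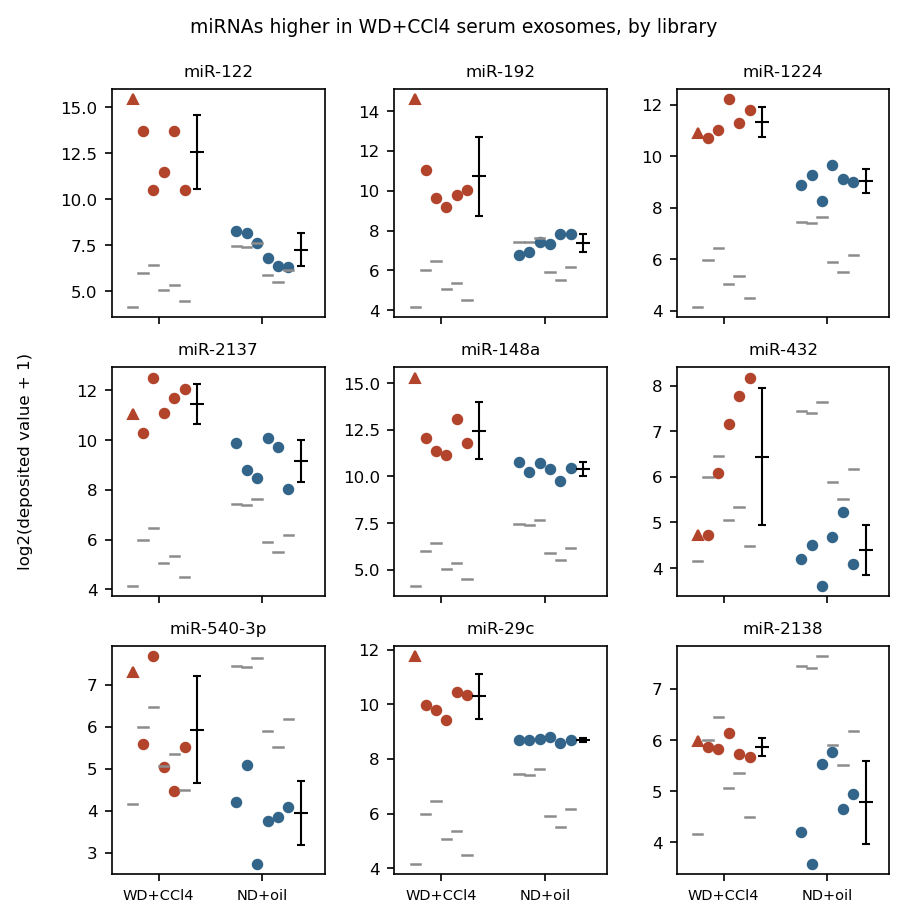
The 9 miRNAs that were higher in WD+CCl4, as log2(scaled count + 1) on the vertical axis of each panel, with 1 point per library (red WD+CCl4, blue ND+oil). The triangle is WD+CCl4 replicate 1, grey dashes are the negative control limit of each library, and the black bar is the mean ± SD (n = 6). miR-122, miR-192, miR-1224, miR-2137, miR-148a and miR-29c do not overlap between groups, and miR-432, miR-540-3p and miR-2138 are under the limit in all 6 ND+oil libraries.

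The miR-29 family, whose members repress collagen and other matrix genes, split by member. miR-29c had 693, 1143 and 3480.4 scaled counts in WD+CCl4, against 386, 413 and 447 in ND+oil, without overlap and with all values above the limit. It rose by log2 1.59 (SE 0.49, adjusted p = 0.0415), and missed the threshold without WD+CCl4 replicate 1 (log2 1.29, adjusted p = 0.0948). miR-29b ran the other way, with 31.5, 95.6 and 171 scaled counts in WD+CCl4, against 196, 269 and 602 in ND+oil. It did not overlap either, and fell by 1.82 on the log2 scale (SE 0.43, adjusted p = 0.0083; log2 fold change -1.55 without replicate 1, adjusted p = 0.0222). The most abundant member, miR-29a, had 3494, 5657 and 6667 scaled counts in WD+CCl4, against 3712, 6671 and 8665 in ND+oil, with a log2 fold change of -0.23 (SE 0.30, adjusted p = 0.614).

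Within each library log2 miR-29c minus log2 miR-29b averaged 3.88 ± 1.55 in WD+CCl4, against 0.47 ± 0.64 in ND+oil (SD, n = 6 each), a difference of 3.41, or 2.84 without WD+CCl4 replicate 1. Both miRNAs carry the same scaling factor, which cancels in this difference apart from the pseudocount, and the ranges did not overlap (2.02 to 6.74 in WD+CCl4, -0.55 to 1.06 in ND+oil). Background counts do not cancel in it. The difference was 3.79 within the first 3 replicates and 3.03 within the last 3. The pair was chosen with these fold changes known, so the values are a description.

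Other related miRNAs were compared in the same way. miR-99a and let-7c come from 1 cluster, and log2 miR-99a minus log2 let-7c averaged -2.67 ± 0.53 in WD+CCl4, against -1.11 ± 0.57 in ND+oil (SD, n = 6 each), without overlap (difference -1.56, and -1.44 without WD+CCl4 replicate 1). For miR-192 minus miR-194 the values were 6.14 ± 1.00 in WD+CCl4, against 2.88 ± 0.53 in ND+oil, but miR-194 was near background throughout. The remaining 9 pairs overlapped between groups. Among them miR-144 minus miR-451, from 1 red cell transcript, differed by -1.54 and miR-15a minus miR-16 by -1.32, while miR-98 minus let-7f differed by -0.08 and miR-125a-5p minus let-7e by 0.15. The miR-144 difference was negative in replicates 1 to 3 (-1.30) and in replicates 4 to 6 (-1.78).

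**Figure D2:**
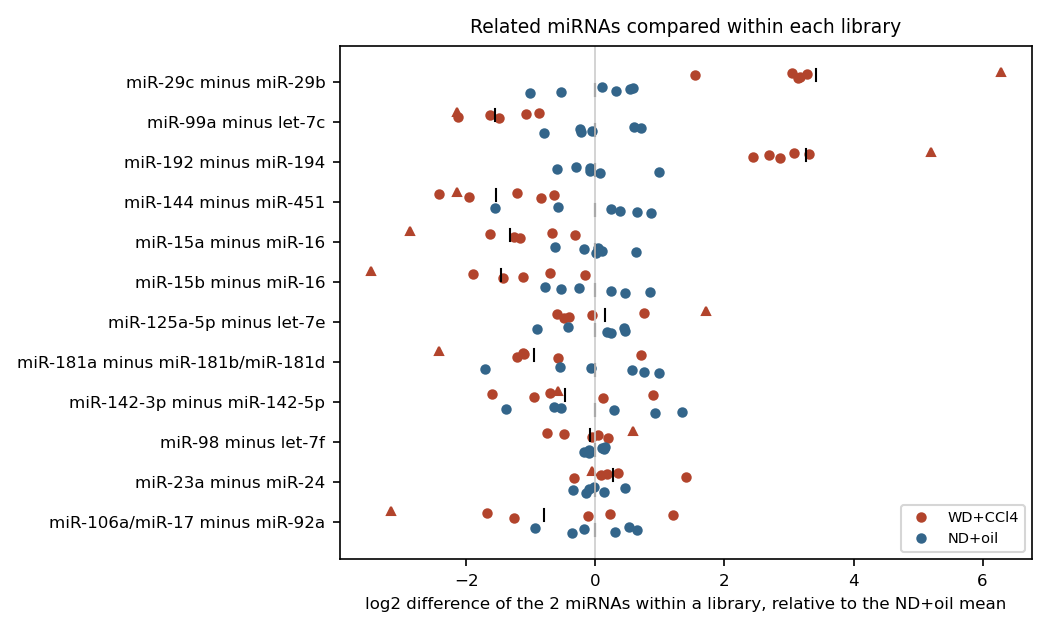
Log2 difference between 2 related miRNAs within a library, on the horizontal axis, relative to the mean of the ND+oil libraries. Points are libraries (red WD+CCl4 above, blue ND+oil below in each pair, triangle WD+CCl4 replicate 1) and black ticks the WD+CCl4 mean; miR-29c minus miR-29b lies 3.41 above and miR-99a minus let-7c 1.56 below the ND+oil mean, both without overlap.

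Before the falls are described, the scaling has to be given, since it moves all of them. Relative to the deposited scaling the median fold change of all tested miRNAs moved from -0.17 to -0.03 with each library centred on its median, to 0.07 with edgeR, to 0.14 with DESeq2, to 0.06 with background subtracted and to 1.24 with scaling by spike-in probes. Spike-in probes stood at 1.08%, 5.16% and 26.7% of the miRNA count in WD+CCl4, against 8.52%, 20.1% and 62.4% in ND+oil (lowest, median and highest). The falls below are relative to the bulk of the measured miRNAs in a library. With spike-in scaling none of the 16 passed and 8 of them had a positive log2 fold change, between 0.01 and 0.62, all under the median of 1.24.

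The largest fall was that of miR-99a, a miRNA that represses the growth kinase Mtor. It had 15.1, 60.0 and 89.0 scaled counts in WD+CCl4, against 152, 213.6 and 251 in ND+oil, and the groups did not overlap. The log2 fold change was -1.998 (SE 0.47, fold 0.25, adjusted p = 0.0083), or -1.66 without WD+CCl4 replicate 1 (adjusted p = 0.0222); 4 of 6 samples in each group lay above the limit. miR-125a-5p, of the related miR-125 family that represses Lin28, had 138, 332 and 599 scaled counts in WD+CCl4, against 465, 671 and 815 in ND+oil. It overlapped and fell with and without that library (log2 -1.18, SE 0.31, adjusted p = 0.0188, and -1.25, adjusted p = 0.0222). In replicates 1 to 3 its log2 fold change was -0.51 and in replicates 4 to 6 -1.84. miR-125b-5p, which has the same seed family, stood at 0.29 (SE 0.53, adjusted p = 0.742; without replicate 1 0.01).

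The let-7 family, which represses Lin28, Hmga2 and Ras genes, had a negative log2 fold change in 9 of 9 members (median -1.31, all tested miRNAs -0.17), beside 93 of 158 tested, and 3 passed, beside 16 of 158 (10.1%) called lower of all tested. With spike-in scaling the family median was 0.12, beside 1.24 for all tested. let-7i had 129.7, 713 and 1452 scaled counts in WD+CCl4, against 1609, 1997 and 2971 in ND+oil, without overlap and all above the limit (log2 -1.75, SE 0.54, adjusted p = 0.0408). let-7e (17.4, 43.9 and 79.1 scaled counts in WD+CCl4, against 68.2, 99.1 and 197 in ND+oil) and miR-98 (13.2, 28.5 and 62.0 in WD+CCl4, against 56.5, 73.4 and 118 in ND+oil) overlapped and were near or under the limit. In each group let-7e lay above it in 3 of 6 and miR-98 in 2 of 6 samples. Their log2 fold changes were -1.33 (SE 0.43, adjusted p = 0.0418) and -1.38 (SE 0.38, adjusted p = 0.0242). None of the 3 passed without WD+CCl4 replicate 1 (log2 -1.29, -1.10 and -1.17, adjusted p = 0.0946, 0.0979 and 0.066), where the family median was -0.97. The other 6 members ranged from -1.76 (let-7d, -1.15 without that library) to -0.44 (let-7c, -0.22 without it).

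miR-15a and miR-15b, which repress Bcl2 and cell cycle genes, fell, while their cluster partner and seed mate miR-16 did not pass. miR-15a had 81.3, 292 and 478 scaled counts in WD+CCl4, against 543.5, 659.7 and 1083 in ND+oil, without overlap (log2 -1.43, SE 0.36, adjusted p = 0.0131; without WD+CCl4 replicate 1 -1.11, adjusted p = 0.0298). miR-15b had 117, 606 and 1168 scaled counts in WD+CCl4, against 945, 1369 and 2735 in ND+oil, with overlap (log2 -1.58, SE 0.52, adjusted p = 0.0426; without replicate 1 -1.16, adjusted p = 0.112). miR-16, an abundant miRNA of red cells, had 8601, 10006 and 11901 scaled counts in WD+CCl4, against 9739.6, 10797 and 13465 in ND+oil (log2 -0.11, SE 0.29, adjusted p = 0.797). The miR-15a sign turned with spike-in scaling (log2 0.01).

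Some of the other falls were members of lists of blood cell miRNAs, whose other tested members did not pass. Among those, miR-146a and miR-342-3p had positive log2 fold changes (0.69 and 0.36, and 0.91 and 0.71 without WD+CCl4 replicate 1). miR-181a, a regulator of T and B cell development, had 32.4, 132 and 274 scaled counts in WD+CCl4, against 343, 423 and 649 in ND+oil, without overlap (log2 -1.78, SE 0.59, adjusted p = 0.0426). miR-142-3p, found in nearly all white blood cells, had 46.6, 203.2 and 419 scaled counts in WD+CCl4, against 298, 465 and 866 in ND+oil (log2 -1.58, SE 0.50, adjusted p = 0.0418), with overlap. miR-144, which red cell precursors make with miR-451, had 55.7, 308 and 603 scaled counts in WD+CCl4, against 479.7, 928 and 1680.4 in ND+oil (log2 -1.64, SE 0.54, adjusted p = 0.0426), with overlap. None of these 3 passed without WD+CCl4 replicate 1, their lowest library (log2 -1.39, -1.21 and -1.17, adjusted p = 0.112, 0.0979 and 0.112). miR-191, abundant in platelets, had 437, 1077 and 1310.4 scaled counts in WD+CCl4, against 1192, 2341 and 2874 in ND+oil (log2 -1.12, SE 0.33, adjusted p = 0.0302; without that library -0.89, adjusted p = 0.0853), and its sign turned with spike-in scaling (log2 0.32).

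Each of the erythroid (4 tested, 4 lower, median -0.40), platelet (5 tested, 5 lower, median -0.27), myeloid (4 tested, 3 lower, median -1.07) and lymphoid (3 tested, 2 lower, median -1.28) lists had 1 miRNA called lower, beside 16 of 158 (10.1%) of all tested. Without WD+CCl4 replicate 1 the count was 0 in each, beside 3.16% of all tested, and the list medians were -0.17, -0.17, -0.65 and -0.95 in the same order. Summed erythroid levels were 29551, 92486 and 134546 scaled counts in WD+CCl4, against 62263, 85867 and 125841 in ND+oil, and the 29551 was replicate 1. Summed myeloid levels were 3862, 19941 and 30409 in WD+CCl4, against 23916, 27938 and 31517 in ND+oil, and summed platelet levels 3948, 18250 and 27950 in WD+CCl4, against 22683, 29780 and 33143 in ND+oil. The lowest sums of both were replicate 1, and without it the lowest WD+CCl4 sums were 16502 (myeloid) and 16676 (platelet). miR-223 belongs to both lists and makes up most of both sums, with medians of 14569 scaled counts in WD+CCl4 and 24310 in ND+oil. The myeloid and platelet sums therefore largely repeat 1 miRNA. The most abundant members did not pass: miR-451 stood at log2 -0.10 (SE 0.48, adjusted p = 0.858) and miR-223 at -1.02 (SE 0.51, adjusted p = 0.15), and without replicate 1 at 0.25 and -0.52. The part of vesicle origin in the falls was not tested. Of the tested endothelial (2), muscle (4), neuronal (2) and epithelial (3) list members 1 passed, miR-128, beside 25 of 158 (15.8%) of all tested. No pancreas islet marker was kept by the filter.

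Further falls were those of miR-151-5p, miR-128, miR-301a and the probe shared by miR-20a and miR-20b. miR-151-5p, which lies in an intron of the focal adhesion kinase gene Ptk2, had 42.9, 97.8 and 165 scaled counts in WD+CCl4, against 213.8, 259 and 368.5 in ND+oil, without overlap. It fell with and without WD+CCl4 replicate 1 (log2 -1.49, SE 0.35, adjusted p = 0.0083, and -1.26, adjusted p = 0.0222). The brain-rich miR-128 had 47.0, 82.2 and 142.2 scaled counts in WD+CCl4, against 109, 171 and 413 in ND+oil, with overlap (log2 -1.15, SE 0.38, adjusted p = 0.0419). It lay above the limit in 6 of 6 WD+CCl4 but only 3 of 6 ND+oil samples, so its ND+oil level is in part background. miR-301a, which shares the seed of the miR-130 family, had 102, 191.997 and 318 scaled counts in WD+CCl4, against 230.1, 395 and 678 in ND+oil, with overlap (log2 -1.03, SE 0.31, adjusted p = 0.0408). The miR-20a and miR-20b probe, of the growth-promoting miR-17-92 cluster and its paralog, had 3268, 4286 and 4622 scaled counts in WD+CCl4, against 5079, 6977 and 9521 in ND+oil (log2 -0.83, SE 0.28, adjusted p = 0.0468). Its groups did not overlap. The last 3 missed the threshold without replicate 1 (log2 -0.99, -0.84 and -0.76, adjusted p = 0.0979, 0.0923 and 0.0979), and with spike-in scaling their signs turned (0.27, 0.41 and 0.62).

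**Figure D3:**
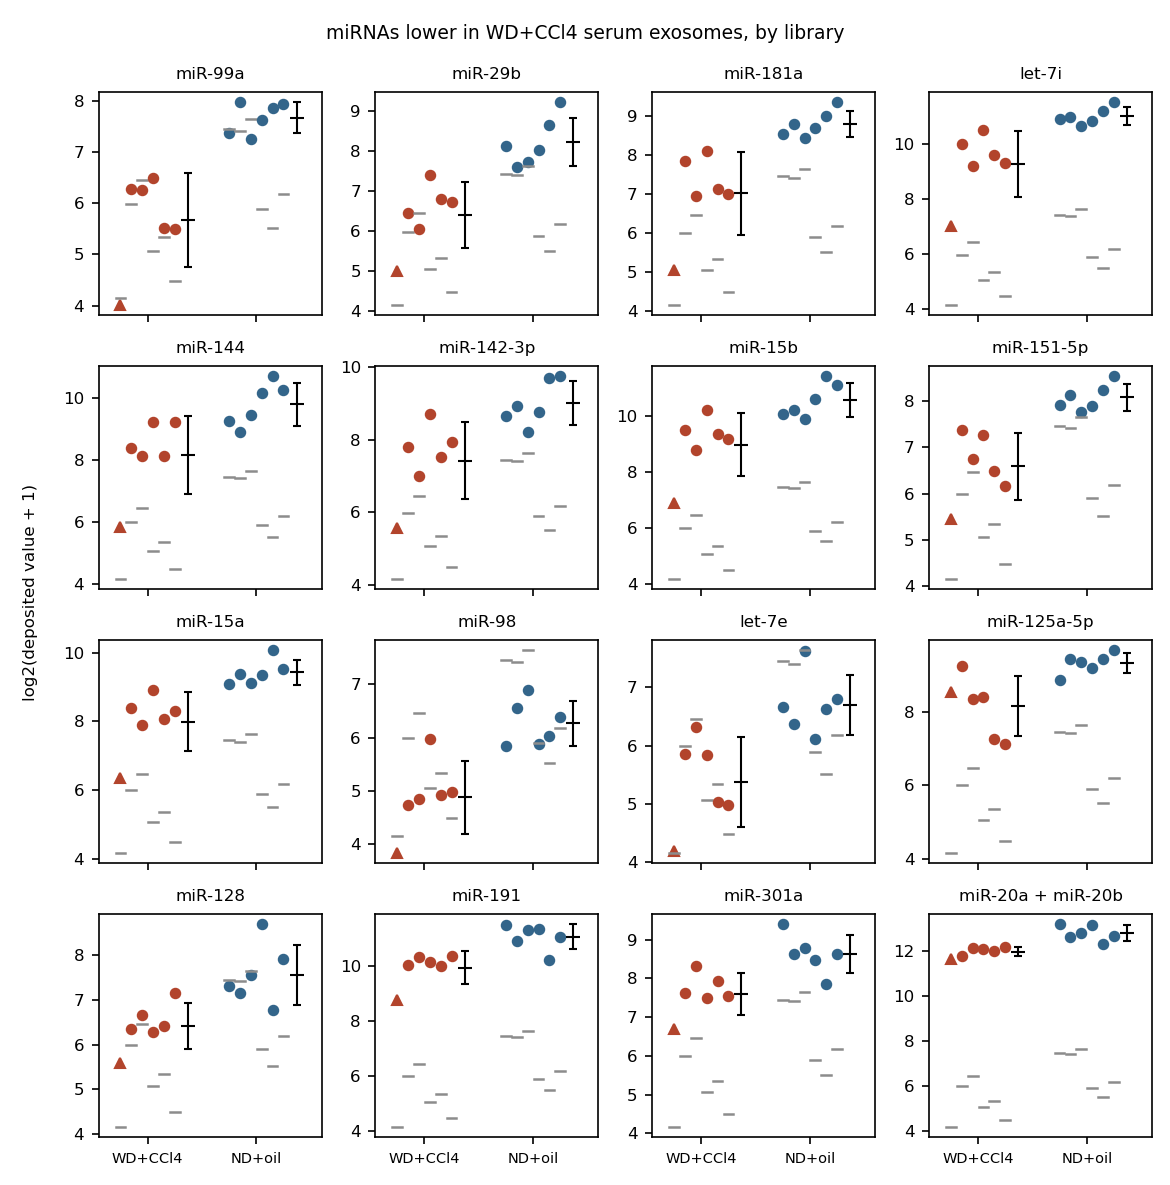
The 16 miRNAs that were lower in WD+CCl4, as log2(scaled count + 1) on the vertical axis of each panel, with 1 point per library (red WD+CCl4, blue ND+oil), the negative control limit of each library as a grey dash and the mean ± SD as a black bar (n = 6). The triangle, WD+CCl4 replicate 1, is the lowest of its group in 15 of 16 panels. With spike-in scaling 8 of the 16 had a positive log2 fold change, between 0.01 and 0.62.

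WD+CCl4 replicate 1 was the lowest library of its group in 15 of the 16 falls and the highest in 4 of the 9 rises (miR-122, miR-192, miR-148a and miR-29c). The median SD over the 158 miRNAs was 0.852 on the log2 scale in WD+CCl4 (0.516 without that library) and 0.511 in ND+oil. The 10 miRNAs called both with and without it were miR-122, miR-192, miR-1224, miR-2137, miR-432, miR-125a-5p, miR-15a, miR-151-5p, miR-29b and miR-99a. The other 15 of the 25 missed the threshold when it alone was left out. When ND+CCl4 replicate 1, which lay as far out (23.7 on the first component) and enters only the shared estimate of spread, was left out as well, 43 of 158 (27.2%) passed, 18 higher and 25 lower, and these included all 25.

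**Figure D4:**
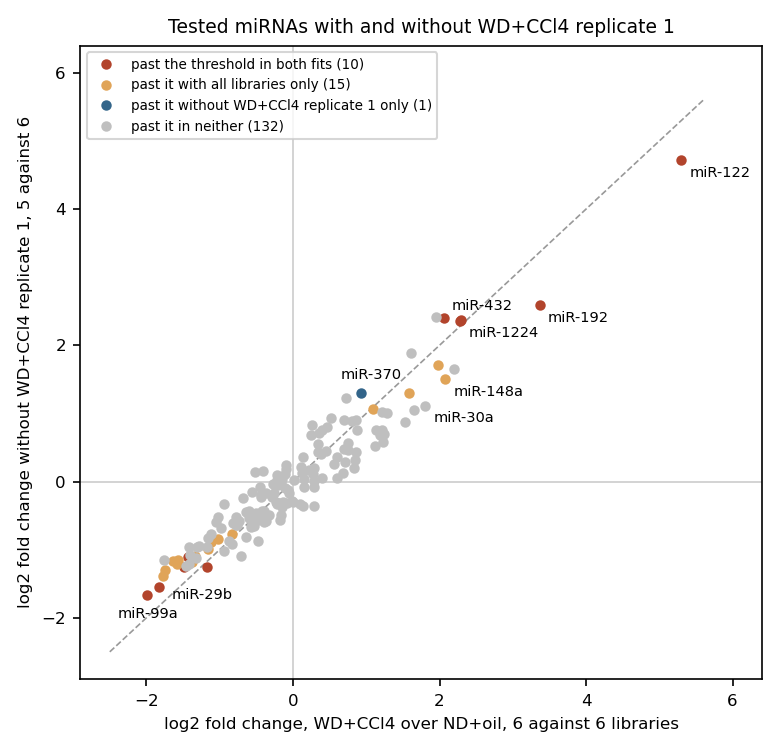
Log2 fold change of the 158 tested miRNAs, WD+CCl4 over ND+oil, with all 6 WD+CCl4 libraries (horizontal axis) and without WD+CCl4 replicate 1 (vertical axis), with colours for the fits in which a miRNA passed the threshold. The 25 miRNAs called with all libraries keep their sign, and 21 of them lie nearer to 0 without that library, among them miR-192 at 2.59 beside 3.36.

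Both sets of replicates, numbered 1 to 3 and 4 to 6, gave the direction of all 25. The 25 were chosen on these same libraries, which favours equal directions and separate ranges within each set. The log2 fold change of miR-122 was 5.18 in the first and 5.41 in the second set, and that of miR-1224 was 2.07 and 2.51. Those of miR-192 (4.73 and 1.997) and miR-432 (1.08 and 3.04) differed more between the sets, without a test of the difference. Within the first set 24 of the 25 did not overlap between groups, among 53 of 158 tested, and within the second 20 of the 25, among 57 of 158. Of the 25, 15 were above the limit in all 12 samples (4 higher and 11 lower), and a test of the 73 miRNAs measured above it throughout called 16 (21.9%), 4 higher (5.48%) and 12 lower (16.4%), these 15 and the probe shared by miR-106a and miR-17.

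Some of the miRNAs best known from liver fibrosis and liver cancer did not pass. miR-21, raised in many tumours and in activated stellate cells, had 3974, 5564 and 47389 scaled counts in WD+CCl4, against 3532, 4962 and 6406 in ND+oil (log2 0.59, SE 0.54, adjusted p = 0.463). The 47389 was replicate 1, and without it the log2 fold change was 0.06. miR-221 stood at 0.15 (SE 0.35, adjusted p = 0.771), miR-222 at -0.22 (SE 0.27, adjusted p = 0.592) and miR-199a-3p at -0.09 (SE 0.53, adjusted p = 0.881). miR-34a, miR-155, miR-224, miR-214, miR-101a and miR-26a were above the limit in at most 2 of 6 WD+CCl4 and in 0 of 6 ND+oil samples and were not tested. The values above the limit were 2 for miR-101a and 1 for miR-34a, which had 212.8 and 53.4 scaled counts in WD+CCl4 replicate 1.

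Members of the liver cancer lists lay in both directions, and the called counts stand beside 15.8% of all tested. Of 15 miRNAs reported higher in liver cancer tissue 8 were tested, 3 higher and 5 lower (median -0.14), and the 1 past the threshold, miR-151-5p, fell. Of 18 reported lower 14 were tested, 6 higher and 8 lower (median -0.15), with miR-122 and miR-29c past the threshold as rises and miR-29b and miR-99a as falls. Without WD+CCl4 replicate 1 the medians were -0.15 and -0.08, miR-29c no longer passed, and the other 4 did, beside 6.96% of all tested. The fibrosis list had 5 tested, 3 higher and 2 lower, with 0 past the threshold and a median of 0.15, or 0.06 without that library. Among the tested members of the lipid and glucose metabolism list, 3 of 6, miR-378 stood at 1.18 (adjusted p = 0.144) and miR-27b at 1.21 (adjusted p = 0.101), and 0 passed. Without replicate 1 these values were 0.68 (adjusted p = 0.358) and 0.76 (adjusted p = 0.261).

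**Figure D5:**
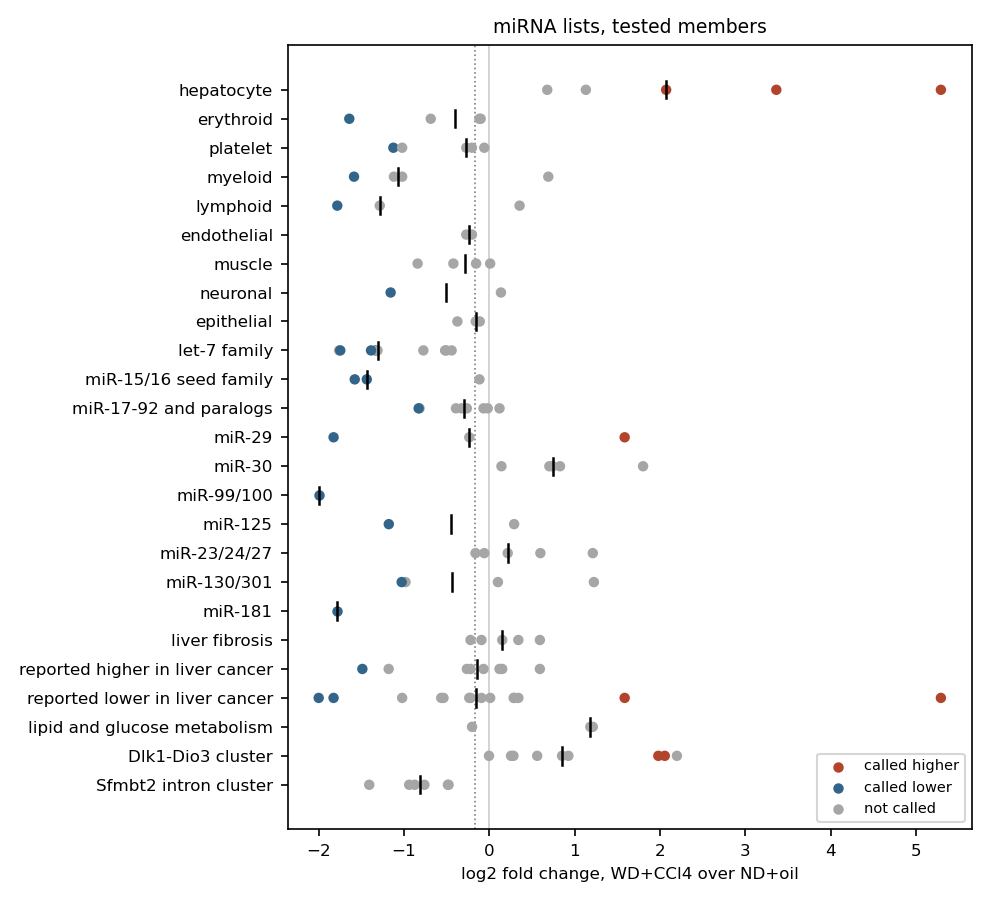
Log2 fold change, WD+CCl4 over ND+oil, of the tested members of each miRNA list (horizontal axis), with red and blue points for miRNAs called higher and lower, grey for those not called, a black tick for the list median and a dotted line at the median of all 158 tested (-0.17). The hepatocyte list has its median at 2.07 and the let-7 list at -1.31, which was 0.12 with spike-in scaling.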

How the data were processed

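Per the labels' protocols, RNA of serum exosomes was extracted with a miRNeasy micro kit. The deposited values have the unit signal: digital counts that the authors multiplied by 1 factor per sample (0.397 to 5.72), as the values show, raising those under 1 to 1. When divided by that factor, 14571 of 14571 values above 1 were whole (100%, tolerance 0.05 counts). For the scaling software and the cartridges the sources used here give nothing. Testing required recovered counts above the mean plus 2 SD of the 8 negative control probes in 6 or more of the 24 libraries. This left 158 miRNAs to test and 408 untested; 4 of the kept probes serve several miRNAs.

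The test was limma 3.58.1 in R 4.3.3 on log2(deposited value + 1), using lmFit and trended eBayes with 4 group means over 24 samples. It was two-sided, and the threshold was a Benjamini-Hochberg adjusted p under 0.05 among the 158. Fold changes, on this log2(value + 1) scale, understate changes of low miRNAs, and each SE is moderated. The filter can favour miRNAs that are high in 1 group, but the limit differs between libraries. miR-199a-5p, above it in 6 of 6 WD+CCl4 and 0 of 6 ND+oil samples, had a log2 fold change of 0.34 (adjusted p = 0.619). edgeR 4.0.16 and DESeq2 1.42.0 on the recovered counts called 39 and 47 and served as alternatives, with others of scaling, background, filter, pseudocount (0.5 and 10), samples, pairing, set of replicates, haemolysis covariate and weights. The test was checked on simulated data.

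Named are all miRNAs past the threshold, those past it only without WD+CCl4 replicate 1, the most abundant, those above the limit in 1 group, list members of smallest p, and miR-21, miR-34a, miR-155, miR-221, miR-222, miR-223, miR-224, miR-199a-3p, miR-214, miR-101a, miR-26a, miR-16, miR-451 and miR-23a. let-7c, let-7d and miR-194 are named as members of pairs or as ends of a range. The members, lists and pairs were chosen with earlier results of these data known. Lists are described by counts and medians only. Residuals of same-numbered samples correlated at -0.17 to 0.44, over 0.1 in 5 of 6. The labels state no pairing, and the main fit was unpaired.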

Additional observations from a re-analysis of the deposited data

Results flagged for a closer look

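In a group of 6 samples the highest or lowest value was singled out where its gap to the nearest other sample took an unusually large share of the whole range of the group on the log2 scale (Dixon's 95% critical value, which chance passes in about 1 in 20 groups). Over 85 named miRNAs in both groups, 27 of 170 groups passed, and 21 of the 27 were WD+CCl4 replicate 1, so these are largely 1 observation on 1 library.

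That library was the highest of WD+CCl4 in 13 of them. The gap was 0.918 of the range for miR-27b, 0.782 for miR-21, 0.718 for miR-130a, 0.704 for miR-30e, 0.698 for miR-301b, 0.696 for miR-34a and 0.696 for miR-27a. It was 0.688 for miR-376b, 0.673 for miR-2146, 0.657 for miR-30a, 0.656 for miR-192, 0.63 for miR-19b and 0.63 for miR-378. Scaled counts there were 1644 for miR-27b, 47389 for miR-21 and 24911 for miR-192, beside at most 269, 6829 and 2139.5 in the other 5 WD+CCl4 libraries.

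WD+CCl4 replicate 1 was the lowest of its group in 8: miR-130b (0.794), miR-191 (0.764), miR-223 (0.726), miR-142-5p (0.681), miR-144 (0.678), miR-342-3p (0.65), let-7i (0.633) and miR-451 (0.628). miR-223, the main miRNA of neutrophils and of platelets, had 2065 scaled counts there, beside at least 12576 in the other 5.

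Among the remaining 6, miR-206 of muscle was singly low in WD+CCl4 replicate 2 (0.654) and in ND+oil replicate 2 (0.647), with 9.82 and 32.7 scaled counts, both under the limit of their libraries. miR-2135 was singly high in WD+CCl4 replicate 3 (0.713) and in ND+oil replicate 4 (0.641), and ND+oil replicate 3 was singly high for miR-30e (0.726) and miR-93 (0.682). Of the 33 viral miRNA probes, 0 lay above the limit in at least 5 of 6 samples of either group.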

How the results depend on the processing

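Beside 25 calls (9 higher, 16 lower), the count was 15 (9 and 6) with each sample centred on its median, 9 (9 and 0) with spike-in scaling, 23 (17 and 6) with background subtracted, 39 (31 and 8) by edgeR and 47 (31 and 16) by DESeq2. All 566 probes without a filter gave 10 (4 and 6), and only the 73 above the limit in all 12 samples 16 (4 and 12). It was 43 (18 and 25) without both libraries that stand apart, 41 (14 and 27) with a term for the sets of replicates, 2 (2 and 0) in replicates 1 to 3 alone, 30 (17 and 13) in replicates 4 to 6 alone and 52 (19 and 33) with array weights. With the replicate number as a block 47 passed (16 and 31), including all 25. The labels state no pairing of same-numbered samples, though 4 of 6 correlated best with their own number. With only the 2 groups and no WD+CCl4 replicate 1, chosen after seeing the data, 41 passed (17 and 24). Fits without 1 library gave 7 to 43 calls (3 to 16 higher, 4 to 27 lower): 11 without WD+CCl4 replicate 1 or 6, 14 without replicate 3 and 15 without replicate 5; 10, 8, 8, 11 and 7 without ND+oil replicate 1, 2, 3, 4 or 6; 15 without WD+oil replicate 1 and 43 without ND+CCl4 replicate 1. All 24 of these fits called 7 of the 25 (miR-15a, miR-29b, miR-99a, miR-122, miR-151-5p, miR-192, miR-1224), and 8 of them called miR-540-3p and the miR-20a and miR-20b probe. The cause of these shifts was not tested, beyond the smaller number of samples or the larger number of probes in some.

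With spike-in scaling the log2 fold changes of 8 miRNAs turned positive, miR-20a with miR-20b (0.62), miR-301a (0.41), miR-191 (0.32), miR-128 (0.27), miR-125a-5p (0.26), let-7e (0.0792), miR-98 (0.0309) and miR-15a (0.0061), with adjusted p of at least 0.596. No named miRNA past the threshold turned its sign under another alternative. Pseudocounts of 0.5 and 10, only the 2 groups, no trend and a haemolysis covariate gave 24 to 26 calls. Depth limits the low miRNAs most in ND+oil replicates 1 to 3, and 84 of the 158 were under the limit in at least 1 ND+oil sample.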

Other observations

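Other values did not belong to the lists that moved most. The 5 miR-30 family members, which are abundant in liver, kidney and heart, all had a positive log2 fold change, beside 65 of 158 tested. Their median was 0.74, and 0.29 without WD+CCl4 replicate 1. Of them 0 passed the threshold, beside 9 of 158 (5.7%) called higher of all tested. miR-30a had 615, 998 and 16722 scaled counts in WD+CCl4, against 323.5, 427 and 543.5 in ND+oil, without overlap (log2 1.80, SE 0.69, adjusted p = 0.0691). Likewise miR-27b had 229, 254 and 1644 in WD+CCl4, against 81.2, 144.1 and 208.7 in ND+oil, without overlap. In both miRNAs the highest value was WD+CCl4 replicate 1, and without it the log2 fold change was 1.11 (adjusted p = 0.199) for miR-30a and 0.76 (adjusted p = 0.261) for miR-27b. miR-22, among the most abundant miRNAs of both groups and a miRNA of many tissues, had 17293, 28113 and 259274 scaled counts in WD+CCl4, against 14083, 16832 and 23663 in ND+oil (log2 1.24, SE 0.57, adjusted p = 0.125; without replicate 1 0.70).

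The 6 tested miRNAs with names of the Sfmbt2 intron cluster, a rodent array of repeated miRNA genes, all had a negative log2 fold change, beside 93 of 158 tested. Their median was -0.82, -0.75 without WD+CCl4 replicate 1, and 0.61 with spike-in scaling, beside 1.24 for all tested. Of them 0 passed the threshold, beside 16 of 158 (10.1%) called lower of all tested, and miR-669a stood at -0.87 (SE 0.30, adjusted p = 0.0512). In the other blood cell miRNAs, miR-150 of lymphocytes stood at -1.28 (SE 0.51, adjusted p = 0.0766; -0.95 without replicate 1), while miR-146a, a brake on inflammatory signalling, stood at 0.69 (SE 0.38, adjusted p = 0.181; 0.91 without it). A total of 8 miRNAs lay above the limit in at least 5 of 6 WD+CCl4 and at most 1 of 6 ND+oil samples, among them miR-376b, miR-2146, miR-301b, miR-365, miR-2135 and miR-199a-5p, and 0 the other way round. The median limit was 36.1 scaled counts in WD+CCl4 and 120.4 in ND+oil, and its part in this count was not tested.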
